A study of Mus musculus with 16 samples.

Results

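Resting Paneth cells (PCs) were described from the 4 RNA-seq libraries labelled PBS+PBS, out of 16 libraries in the series. PCs belong to the secretory lineage of the intestinal epithelium and sit at the bottom of the crypts of the small intestine. They package antimicrobial proteins into large apical granules, and they border the intestinal stem cells, to which they present growth signals. Alpha-defensins, small cysteine-rich peptides encoded by the Defa genes, are their best known product, next to lysozyme, angiogenin and lectins. Such a cargo is folded and disulfide-bonded in the endoplasmic reticulum (ER), which is why PCs hold much rough ER.

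C57BL/6J mice received 2 injections 1 h apart, and cells were taken 3 h after the second. The first injection was PBS or DEX and the second PBS or TNF, which gave the groups PBS+PBS, PBS+TNF, DEX+TNF and DEX+PBS with 4 libraries each. DEX, usually short for dexamethasone, is not spelled out in the sources used here, and the age and sex of each mouse are not given there. PCs were purified from the small intestine by flow cytometry on surface markers, and stranded mRNA libraries were prepared from their total RNA. The resting cells therefore came from mice that had been injected with PBS at both times and not from untouched animals. The study describes its samples as taken from individual mice, but the labels do not tie a library to a mouse.

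The 4 PBS+PBS libraries held 11216365, 14231818, 14296060 and 15832111 counts, and the 12 others held 7286307 to 15043143. Each PBS+PBS library had counts for 13888 to 15093 genes. Levels are given as TPM, the abundance of a transcript per length as a part of a fixed sum over all genes. It was computed here from the deposited counts and the length of the canonical transcript, so that genes of unlike length can be compared. In bulk RNA, fewer cells of a type and less RNA per cell cannot be told apart. Because the Defa genes take most of that sum, the TPM of every other gene is pressed down and moves with them. Means are over the 4 libraries with their SD (n = 4), unless said otherwise, and values of single libraries are listed in the order 1 to 4.

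Library PBS+PBS 4 stood apart from the other 3, and the way it did so followed transcript length. Relative to the median of the 4 libraries, its 287 genes with transcripts up to 1 kb lay at a median of 0.22 on the log2 scale. Its 1509 genes of 2 to 3 kb lay at -0.87 and its 1492 genes over 6 kb at -1.61. The corresponding values for transcripts over 6 kb were 0.05, -0.03 and 0.31 in libraries 1 to 3. Library 4 had 5171 genes at 1 TPM or more against 8127, 8127 and 8919 in the others, and its TMM scaling factor was 0.503 against 1.04, 1.10 and 1.31. The difference in median deviation between the longest and shortest transcripts, computed over all 16 libraries, was -1.90 in library 4, and -1.48 to 0.59 in the 12 libraries of the other groups. Its cause was not tested. Means without library 4 are given for the main regulators, signals and receptors, and counts of detected genes are given also over libraries 1 to 3 where they differ.

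**Figure D1:**
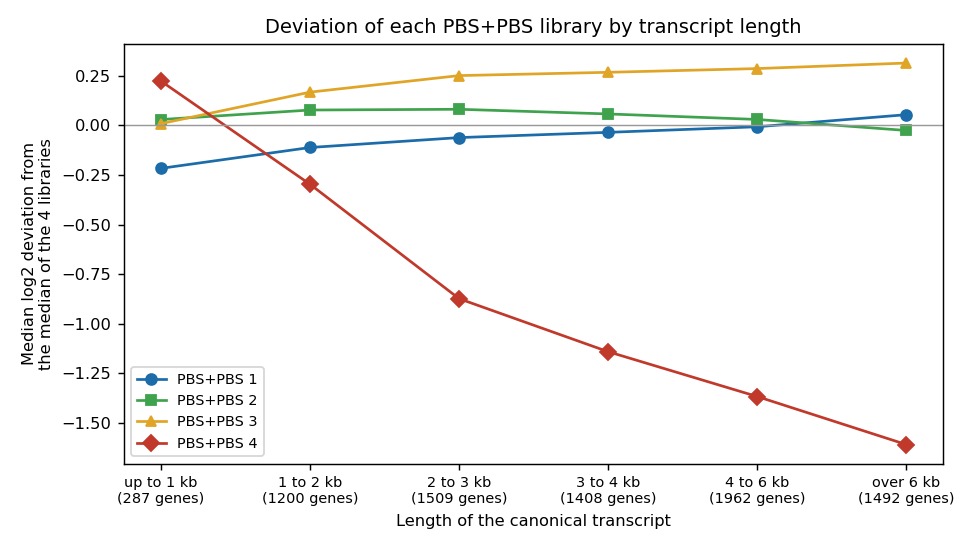
Median log2 deviation of each PBS+PBS library (vertical axis) from the median of the 4 libraries, for genes averaging 5 CPM or more, in 6 classes of transcript length (horizontal axis, with the number of genes). Libraries 1 to 3 stay within 0.31 of the median in every class, and library 4 falls from 0.22 to -1.61 as transcripts lengthen.

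The transcriptome of resting PCs was dominated by a few very short secreted transcripts. Defa24, Defa30 and Defa38 together passed 50% of the summed level per length, 7 genes passed 75%, and 20 genes passed 90%. The 10 most abundant genes held 84.4% of the level, spanned 14508 to 320033 TPM, had a median transcript length of 468.5 bases, and were all secreted proteins. Genes ranked 11 to 100 held 9.28%, the next 900 held 3.19%, and the 9000 after them held 3.07%. Of the 90 genes in the second tier 24 were on the lists of secreted proteins, and of the 900 in the next tier 10 were. In all 4 libraries 4994 genes reached 1 TPM, of which 4867 were protein-coding and 79 lncRNA genes. Protein-coding genes held 99.3% of the level.

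The 20 highest ranks were, from the top, Defa24, Defa30, Defa38, Lyz1, Defa39, Itln1, Ang4, Defa22, Defa21, Mptx2, Spink4, Defa17, Defa29, Clps, Reg4, Defa26, Pnliprp2, Mmp7, Rn18s-rs5 and Defa40. Rn18s-rs5 is a copy of 18S ribosomal RNA and measures what was left of it after selection for poly(A) RNA. The 5 genes used to mark PCs, Defa24, Lyz1, Itln1, Ang4 and Mmp7, all stood among these 20 and made up 454211 to 481698 TPM per library. The top 10 of all 4 libraries had 8 genes in common, and 12 genes were in the top 10 of at least 1 library. Of the 136 genes that were in the top 100 of any library, 70 were in the top 100 of all 4.

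**Figure D2:**
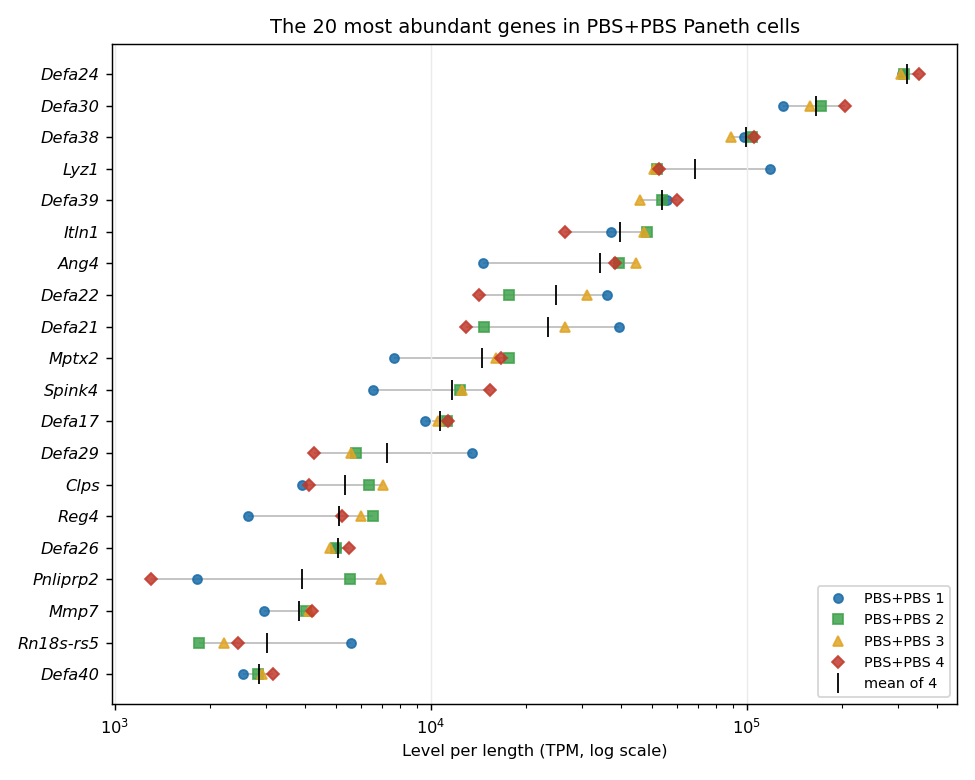
Level per length in TPM (horizontal axis, log scale) of the 20 most abundant genes, with 1 symbol per PBS+PBS library, a grey line over their range and a black tick at the mean of 4. Defa24 lies between 307456 and 350376 TPM in all 4 libraries, whereas Lyz1, Ang4 and Defa29 have library 1 apart from the other 3.

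The stretch just upstream of the start of transcription is shown for some of these genes, because many of the highest-ranked genes share a TATA box there. Each line gives the 30 bases from 40 to 11 bases before the start of the canonical transcript (GENCODE M39, GRCm39), 5′ to 3′ on the strand of the gene, with the motif TATAAA in capitals.
Defa24, chr8:22224467-22224496, plus strand: ctttctctgtccTATAAAtgcaggctggat
Defa30, chr8:21624593-21624622, plus strand: ctttcactgtccTATAAAggcaggctggat
Defa22, chr8:21652253-21652282, plus strand: tctctgcccTATAAAtataggctggctatt
Mmp7, chr9:7692051-7692080, plus strand: gggctgagaagccaTATAAAtttctccagc
Lyz1, chr10:117128786-117128815, minus strand: gacttggaggatgcttaaatagcaggcatg
Itln1, chr1:171362874-171362903, minus strand: ctgggctttccccataaaaggaccaaagtc
Ang4, chr14:52011064-52011093, minus strand: ccccgtcacacgagcactatatattaccag
Defa38, chr8:21586077-21586106, minus strand: ttgagttcctgctcactaatcttccaggtg
The window of Defa24 and that of Defa30 have the motif at the same place in near-identical flanks, and Mmp7 has it in other flanks. The exact letters are not in the windows of Lyz1, Itln1, Ang4 and Defa38. The motif was found in 8 of the 20 most abundant protein-coding genes (40%), namely Defa24, Defa30, Defa39, Defa22, Defa21, Defa17, Defa29 and Mmp7. Of the 100 most abundant 13% had it, of the next 900 1.22%, and of all 21627 protein-coding genes 2.53%. On either strand these shares were 40%, 13%, 1.33% and 2.98%. As 7 of the 8 genes are related copies, they do not count as independent cases. A match is a description of letters in an annotated window and was not tied to the binding of any factor.

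Among the 28 alpha-defensin genes, 20 reached 1 TPM in every library and 15 had a mean of at least 100 TPM. Their summed level was 705238, 705106, 688361 and 774599 TPM, and they took 42.6% ± 7.98 of the counts. Defa24 (ENSMUSG00000064213, chr8:22224506-22225490, plus strand, protein-coding) had 308729.9, 313571, 307456 and 350376 TPM. It alone held 43.9% to 45.4% of all Defa counts, a 1.03-fold range over the libraries. Defa30 followed with 129822, 171757, 158343 and 203663 TPM, lowest in library 1 and highest in library 4. Defa38 had 98029.9, 103897, 88952 and 104909 TPM and Defa39 55813, 53654, 46008 and 60052 TPM, and their ranges did not meet.

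Among the 13 most abundant Defa genes, Defa22, Defa21, Defa29 and Defa34 had the widest ranges as shares of the family. Defa22 had 36100.1, 17629, 31279.6 and 14199 TPM and Defa21 had 39341, 14717, 26563 and 12902 TPM. Both were highest in library 1, next in library 3, and low in libraries 2 and 4. Defa29 had 13441, 5798, 5597 and 4252 TPM, with library 1 at more than 2-fold of any other. As shares of Defa counts the highest library exceeded the lowest 2.79-fold for Defa22, 3.35-fold for Defa21, 3.47-fold for Defa29 and 2.76-fold for Defa34, against 1.02-fold for Defa26 and 1.18-fold for Defa17. In the 12 treated libraries the share of Defa21 ran from 0.307% to 9.36% and that of Defa22 from 0.370% to 8.83%, so the spread at rest was inside that of the series. Over the same 12 libraries Defa24 stayed between 38.9% and 49.1%.

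The low end of the family was made of Defa27 (6.35 ± 1.26 TPM), Defa25, Defa43, Defa42 and Defa32, followed by Defa31, Defa33, Defa20, Defa36, Defa23, Defa37 and Defa2 (0.08002 ± 0.16004 TPM). No Defa gene was without a count over the 4 libraries. In a typical experiment of the study, quantified by another method, Defa2, Defa23, Defa20, Defa43 and Defa36 were among the more abundant Defa genes. Their low values here therefore cannot be read as silence, and the difference was not tested. Values of single Defa genes are uncertain because the copies are close to identical and the handling of reads that match several genes is not given in the sources used here. Of all 31-base windows in the canonical transcript, 56.9% in Defa24, 65.5% in Defa30, 74.8% in Defa38 and 92.0% in Defa22 also occurred in transcripts of other genes. For Defa5, Defa2, Defa31, Defa33, Defa36, Defa20, Defa32, Defa37 and Defa43 it was 100%, so a read of that length could not be placed in them alone. The sum over the family is not affected by how reads are split among its members, but it is by reads dropped for matching several of them.

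Bactericidal enzymes came next, with 133706, 91974, 96526 and 91309.6 TPM in sum, and 2 of them varied in opposite directions. Lyz1, the lysozyme of PCs that cleaves bacterial cell walls (ENSMUSG00000069515, chr10:117123698-117128775, minus strand), had 118393, 51924, 50934 and 52847 TPM. Library 1 was above 2-fold of each of the other 3, which lay within 4% of one another. Ang4, an angiogenin with bactericidal activity (ENSMUSG00000060615, chr14:51990721-52011053, minus strand), had 14577, 39303, 44635 and 38238 TPM, and here library 1 was the low one. Pla2g2a, the secreted phospholipase A2 that attacks bacterial membranes, had 603, 604, 798 and 176 TPM. As background, this gene carries a disruption in C57BL/6 mice, and only its RNA was measured here. Its relative Pla2g2f had 87.4 ± 44.6 TPM. Lyz2, the lysozyme of myeloid cells, had 27.1, 10.7, 10.3 and 11.5 TPM, and 37.0% of the 31-base windows of Lyz1 are shared with another gene, so part of this level may be misplaced reads.

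Lectins and pentraxins added 48567, 73785, 70781 and 49015 TPM. Itln1, a lectin that binds microbial sugars (ENSMUSG00000038209, chr1:171345690-171368943, minus strand), had 37032, 48214, 47068 and 26479.7 TPM, lowest in library 4. Mptx2, a mucosal pentraxin, had 7631, 17616, 16077 and 16707 TPM, with library 1 below 50% of the others. Mptx1, its neighbour in the family, was far lower at 7.25, 129.8, 110.3 and 187 TPM, with library 1 lowest again. Reg4 had 2645, 6539, 6017 and 5218 TPM, Reg3g, a lectin against Gram-positive bacteria, 1096, 1148, 1435 and 362 TPM, and Reg3b 145, 136, 71.6 and 49.9 TPM. Retnlb, an antibacterial resistin-like protein, had 6.76, 128, 139 and 84.5 TPM, again with library 1 lowest.

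Among proteases and lipases, Mmp7, the matrix metalloprotease that processes mouse pro-alpha-defensins (ENSMUSG00000018623, chr9:7692091-7699587, plus strand), had 2966, 4033, 4117 and 4199.8 TPM, with library 1 lowest and the other 3 close together. The pancreatic-type genes Clps, which encodes colipase, and Pnliprp2, which encodes a lipase-related protein, had 3912, 6367, 7043 and 4111 and 1819, 5532, 6951 and 1297 TPM. Both were low in libraries 1 and 4, and none of the 31-base windows of either transcript occurs in another gene. Habp2, a serine protease, had 178 ± 92.6 TPM and Prss32 9.47 ± 4.796 TPM. Of the 23 granule proteins other than Defa, 19 reached 1 TPM in all 4 libraries, and they took 26.3% ± 1.93 of the counts.

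Other secreted proteins were led by Spink4, a small Kazal-type protease inhibitor also known from goblet cells, with 6568, 12309.7, 12506 and 15346 TPM. The chemokines Ccl6 and Ccl9 had 1430.1 ± 274 and 85.7 ± 15.7 TPM, a spread of under 20% of the mean in each. The guanylate cyclase ligands Guca2a (guanylin) and Guca2b (uroguanylin) had 763 ± 85.6 and 641 ± 211 TPM. Mucus-associated genes were Agr2, a disulfide isomerase needed for mucin folding, at 983 ± 314 TPM, Tff3 at 988, 644, 439.9 and 1489 TPM, Muc2, the gel-forming mucin, at 121, 201, 269 and 17.6 TPM, and Fcgbp at 25.5 ± 19.1 TPM. Muc2 has a very long transcript, and without library 4 its mean was 197 TPM. Clca1, a metalloprotease of mucus, had 4.44, 285, 127 and 299 TPM, far lower in library 1 than in the others. Of the 48 proteins on this list, 17 reached 1 TPM in all 4 libraries and 19 in libraries 1 to 3. Apoa1 had 0.04597, 1.47, 1.02 and 8.03 TPM and Saa1 0, 3.37, 1.29 and 0 TPM, so plasma-type proteins added only 22.3 ± 8.31 TPM in sum.

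Together the 99 listed secreted proteins took 71.0% ± 8.08 of the counts, with 64.1% in the lowest and 82.7% in the highest library. Per length their share was 91.3% ± 2.33. Without library 4 these means were 67.1% and 90.2%. The alpha-defensins took 71.8% ± 3.83 per length, the other granule proteins 17.7% ± 1.85 and the other secreted proteins 1.71% ± 0.372. Library 4 had the highest Defa share, 54.5% of counts, against 37.3% in the lowest library, and 76.2% of its counts lay in its 10 most abundant genes against 64.6%, 60.7% and 56.7%.

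**Figure D3:**
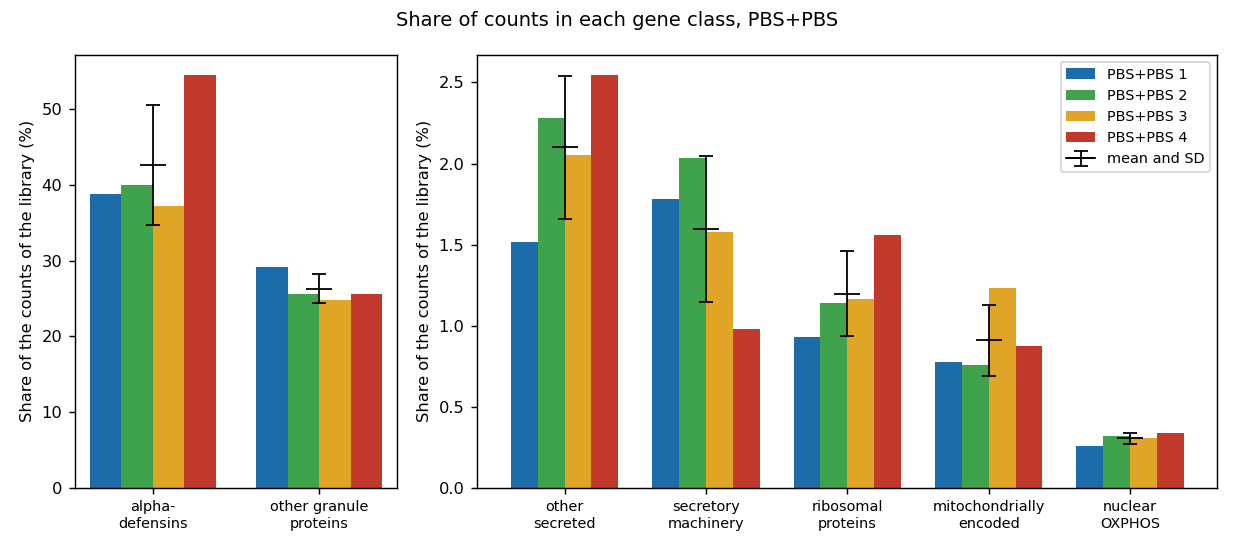
Share of the counts of a library in percent (vertical axes, which differ between the panels) for 7 gene classes, with 1 bar per PBS+PBS library and the mean and SD of 4 in black. Alpha-defensins and other granule proteins together exceed 60% of counts in each library, and the remaining classes each stay under 3%.

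The machinery that makes and folds this cargo was present almost in full. Of 103 genes, 97 of 103 reached 1 TPM in all libraries (101 in libraries 1 to 3), with a sum of 4749, 5311, 4271 and 2410.2 TPM and 1.59% ± 0.450 of counts. P4hb, the protein disulfide isomerase, was the highest with 606, 686, 555 and 340.1 TPM. Calr and Hspa5, ER chaperones, had 163 ± 75.01 and 66.4 ± 18.1 TPM, and Ppib, Txndc5 and Pdia3, further folding enzymes, had 142 ± 26.6, 111 ± 45.5 and 91.8 ± 31.9 TPM. In translocation, Sec11c of the signal peptidase complex led with 104, 142, 128 and 135 TPM, and Ssr3, Tram1 and Sec61a1 had means of 93.2, 70.7 and 70.3 TPM. For N-glycosylation Rpn2 (87.5 ± 46.5 TPM) and Ostc (68.7 ± 13.1 TPM) led among 11 genes, all detected. Tmed6, a cargo receptor between ER and Golgi, had 198, 136, 128 and 172 TPM, above Tmed10, Tmed3 and Surf4 (87.9, 82.97 and 74.4 TPM). Of the sensors of ER stress, Ern2, the epithelial paralogue of Ern1, had 21.8, 30.2, 36.9 and 5.705 TPM, Ern1 16.98, 15.2, 22.97 and 1.55 TPM, and Eif2ak3 6.23 ± 3.44 TPM. Without library 4 their means were 29.6, 18.4 and 7.94 TPM.

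Exocytosis genes were lower, and 18 of 27 reached 1 TPM in all 4 (20 in libraries 1 to 3). Rab3d, a GTPase of secretory granules, had 66.97, 76.3, 76.9 and 18.1 TPM, and Vamp8, the SNARE of granule fusion in exocrine cells, had 29.2, 37.99, 43.6 and 28.2 TPM. Rab25, Vamp2, Sytl2 and Rab27a had means of 26.8, 16.7, 15.997 and 15.9 TPM. Library 4 was the lowest for both Rab3d and Vamp8, for Vamp8 only just below library 1.

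By summed level the secretory lineage led among transcription factors, with 391, 406, 436 and 120.4 TPM. Of 127 factors listed 57 of 127 reached 1 TPM in all libraries (88 in libraries 1 to 3), 21 had a mean of at least 10 TPM and no mean reached 100. Xbp1, which drives ER expansion in secretory cells, had 117, 115, 122 and 33.6 TPM. Bhlha15 (Mist1), Spdef, Atoh1, Creb3l1 and Foxa3 had 46.2 ± 24.8, 37.4 ± 15.7, 37.1 ± 15.9, 29.7 ± 15.3 and 28.3 ± 9.47 TPM. Their means without library 4 were 118, 58.3, 44.2, 44.6, 36.5 and 32.999 TPM. Sox9, the Wnt-driven factor without which PCs do not form, had 23.9, 16.7, 23.8 and 3.16 TPM. The means of Spdef and Atoh1 lay within 1 TPM of each other, well inside their SD.

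Factors of intestinal identity were led by Elf3 (38.5 ± 19.4 TPM), Cdx1 (29.999 ± 16.7 TPM) and Hnf4a (25.3 ± 13.6 TPM), with Klf5 and Ehf at 12.8 and 10.5 TPM. Atf4, which controls amino acid synthesis under stress, had 57.3, 63.6, 72.9 and 23.9 TPM and stood second of all listed factors. Without library 4 the means of Elf3, Cdx1, Hnf4a and Atf4 were 47.7, 36.9, 31.7 and 64.6 TPM. Of 18 nuclear receptors 5 reached 1 TPM in all libraries (12 in libraries 1 to 3), with Ppard (16.1 ± 9.81 TPM), Nr1h2 (9.01 ± 5.24 TPM) and Vdr (5.36 ± 4.502 TPM) highest. Nr3c1, the glucocorticoid receptor, had 2.41, 1.81, 3.01 and 0.432 TPM. Of the factors of inflammation Stat3 and Irf1 had means of 12.5 and 8.47 TPM. In the Wnt and Notch group Hes6 (13.1 ± 3.34 TPM) exceeded Tcf7l2 (5.01 ± 3.36 TPM), Hes1 (3.302 ± 1.496 TPM) and Tcf7 (2.77 ± 1.51 TPM).

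Among immediate early genes Jund (37.8 ± 19.1 TPM) and Ier2 (13.1 ± 5.94 TPM) were highest. Fos had 26.5, 3.59, 3.67 and 3.199 TPM and Egr1 11.8, 2.05, 2.197 and 1.18 TPM, so library 1 was more than 5-fold above each of the others for both. The 10 factors of other lineages were low or absent, with a summed level of 1.73 TPM in library 4 to 8.47 TPM in library 3. Of these, 0 reached 1 TPM in all 4 libraries and 2 in libraries 1 to 3. The 5 without a count in any PBS+PBS library were Neurog3, Pax4 and Pax6 of enteroendocrine cells, and Spi1 and Pax5 of blood cells.

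**Figure D4:**
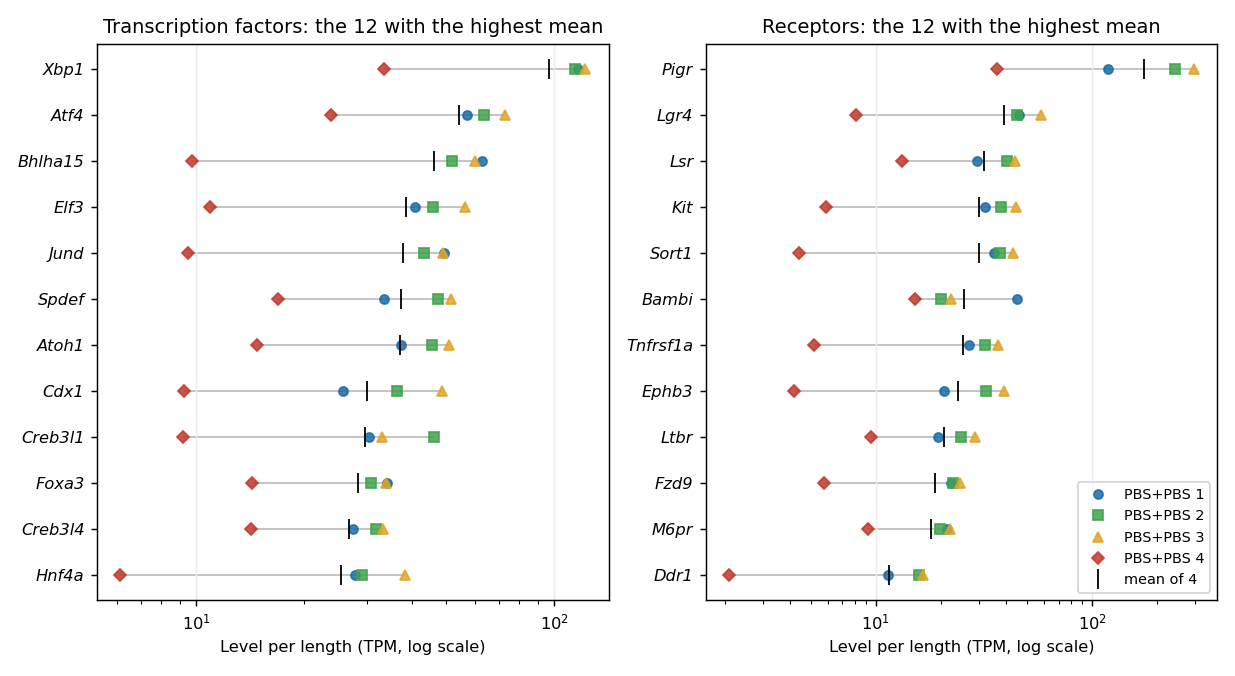
Level per length in TPM (horizontal axes, log scale) of the 12 transcription factors and the 12 receptors with the highest means, with 1 symbol per PBS+PBS library, a grey line over the range and a black tick at the mean of 4. Library 4 is the lowest in every gene shown, and Xbp1 and Pigr head the panels.

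Of the signals that PCs can offer to stem cells, Wnt3 was the main one by level. Wnt3, a Wnt ligand, had 31.5, 35.2, 36.995 and 9.72 TPM, a mean of 34.5 without library 4. No other Wnt ligand on the list passed 1 TPM, and Wnt3a, Wnt6, Wnt11, Wnt4 and Wnt2b had no count. The Notch ligands Dll4 and Dll1 had 6.57, 5.85, 6.61 and 1.02 and 5.78, 3.27, 4.35 and 0.984 TPM. In the EGF family Egf had 5.53, 4.07, 4.71 and 0.856 TPM and Tgfa 2.25 ± 1.24 TPM. Bmp7 had 10.3, 13.6, 14.9 and 2.68 TPM and Ihh, a hedgehog ligand, 1.98, 2.23, 2.92 and 1.59 TPM. Rspo1, Rspo3, Bmp4, Nog and Grem1, products of stromal cells, had no count. Of the niche genes 4 of 31 reached 1 TPM in all 4 libraries and 9 in libraries 1 to 3, with Egf and Dll1 below it only in library 4, and 10 had no count. Bst1, the ectoenzyme that makes cyclic ADP-ribose, had 17 counts, all in library 4.

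Receptors were low in level, and 39 of 145 reached 1 TPM in all libraries (71 in libraries 1 to 3). Pigr, which carries IgA into the lumen, had 119, 241, 297 and 36.2 TPM and was the only receptor with a mean above 100. Of the Wnt receptors, Lgr4, a receptor for R-spondins, had 45.8, 45.1, 57.96 and 8.06 TPM and Fzd9 22.3, 22.8, 24.5 and 5.75 TPM. Lgr5, the stem cell paralogue of Lgr4, had 7.75, 5.11, 5.79 and 0.545 TPM. Kit and Ephb3, receptor tyrosine kinases known on PCs, had 32.01, 37.8, 44.5 and 5.901 and 20.6, 32.4, 39.3 and 4.16 TPM. Among cytokine receptors Tnfrsf1a, the main receptor of TNF, had 26.96, 31.9, 36.8 and 5.18 TPM, and Tnfrsf1b 0.416, 0.7303, 1.29 and 0.185 TPM. Without library 4 the means of Pigr, Lgr4, Fzd9, Kit, Ephb3 and Tnfrsf1a were 219, 49.6, 23.2, 38.1, 30.8 and 31.9 TPM. Ltbr and the IL-22 receptor Il22ra1 had 20.6 ± 8.33 and 10.6 ± 5.95 TPM.

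Bambi, a decoy receptor of the TGF-beta family, had 45.01, 19.9, 22.2 and 15.1 TPM and was highest in library 1. Of 37 G protein-coupled receptors 6 reached 1 TPM in all libraries (13 in libraries 1 to 3). Adgrg1, Adra2a and the muscarinic receptor Chrm3, through which acetylcholine can act, had 10.3 ± 6.49, 6.896 ± 4.18 and 6.31 ± 3.44 TPM. Sensors of microbes were sparse. Nlrc4, the inflammasome adaptor for flagellin, had 10.3, 9.25, 11.6 and 4.76 TPM and was the only 1 of 14 to reach 1 TPM in all 4 libraries, against 4 of 14 in libraries 1 to 3. Nlrp6, Tlr3, Tlr5 and Nod1 had means of 2.64, 1.54, 1.38 and 1.12 TPM. Tlr7, Tlr8 and Tlr9 had no count. A count of 0 allows up to 3 counts in a library (counting error only), which is 0.267 CPM in the shallowest PBS+PBS library and 0.189 CPM in the deepest.

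Metabolic genes reached 1 TPM in all libraries in 110 of 149 cases and in libraries 1 to 3 in 123. In glycolysis Aldoa, an aldolase, had 63.9, 79.7, 88.95 and 33.2 TPM, ahead of Tpi1 (27.95 ± 11.1 TPM) and Gapdh (27.8 ± 11.8 TPM), and Slc2a3 and Hk3 had no count. Ldha, the lactate dehydrogenase subunit of anaerobic tissues, had 59.5, 65.1, 62.8 and 48.4 TPM and Ldhb had no count. Aldoa, Gapdh, Eno1 and Ldha are uncertain, as 86.0%, 84.1%, 68.1% and 39.3% of their 31-base windows also occur in other genes. Pdha1, which feeds pyruvate into the tricarboxylic acid (TCA) cycle, had 41.5, 42.8, 50.2 and 14.4 TPM. All 16 TCA cycle genes reached 1 TPM in all libraries, with Mdh2, Idh1 and Mdh1 highest at 32.6 ± 9.17, 26.4 ± 14.6 and 22.9 ± 5.28 TPM.

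Antioxidant genes and those of serine, one-carbon and glutamine metabolism had the highest summed levels of the metabolic subgroups. Sums grow with the number of genes, here 26 and 21 against 16 for the TCA cycle. By the median of the gene means the TCA cycle was highest, at 14.4 TPM against 7.23 and 7.46 TPM. Glul (glutamine synthetase), Oat, Aldh18a1 and Pycr1 (proline synthesis) and Asns (asparagine synthetase) had 49.6 ± 22.8, 40.8 ± 12.1, 38.1 ± 19.01, 31.7 ± 14.7 and 33.2 ± 14.7 TPM. Together with the other genes of their subgroup they summed to 344, 351, 441 and 129 TPM. Glycolysis summed to 211, 273, 292 and 109 TPM and the TCA cycle to 243, 284, 300.2 and 127 TPM, so these sums overlapped between libraries. Of 20 genes of fatty acid oxidation and ketogenesis 18 reached 1 TPM in all libraries, led by Acaa2 (24.5 ± 7.65 TPM) and Hadh (20.5 ± 4.61 TPM). The antioxidant group summed to 417, 499, 488 and 370.1 TPM. In it Txn1 (thioredoxin), Gpx2 and Gpx1 had 97.8, 112, 106 and 117, 62.98, 103, 80.6 and 52.2 and 44.9, 52.97, 51.9 and 59.4 TPM. Slc30a2, the zinc transporter of PC granules, had 26.8, 28.9, 29.4 and 6.23 TPM.

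Ribosomal protein genes took 1.20% ± 0.263 of counts, with 80 of 87 at 1 TPM or more in all libraries and Rps12 (529 ± 171 TPM) and Rpl41 (388 ± 69.9 TPM) at the top. Nuclear genes of oxidative phosphorylation (OXPHOS) took 0.305% ± 0.0336, led by Atp5f1b (124 ± 31.7 TPM). Mitochondrially encoded genes took 0.909% ± 0.221. This last figure is a partial sum, because 24 of the 37 genes are listed at 0 in all 4 libraries, among them mt-Co2, mt-Co3, mt-Atp6 and mt-Nd3, although mt-Co1 had 1318, 1199.9, 2267 and 1341 TPM and mt-Cytb 1333 ± 462 TPM. A gene listed at 0 beside such neighbours cannot be read as silent. The 37 genes include 22 tRNA genes, of which 2 reached 1 TPM in all 4 libraries, so the 24 at 0 are not all protein-coding.

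Defining genes of stromal, red blood and enteroendocrine cells were at or near 0, and those of the other cell types were higher to varying degrees. In stromal cells 5 of 8 markers (Col1a1, Col1a2, Col3a1, Dcn and Pdgfra) had no count and the summed level was 0 to 0.0785 TPM. In red blood cells 4 of 5 had none and the sum was 0 to 0.147 TPM. Of 10 immune markers, 7 had no count, among them Cd3e and Csf1r, and the sum of 16.8 to 74.3 TPM was that of Cd74 and Lyz2. Enteroendocrine markers summed to 0 to 0.723 TPM and tuft markers to 0.918 to 13.9 TPM, highest in library 3. Of 12 enterocyte markers 3 reached 1 TPM in all libraries. They summed to 74.99 to 95.3 TPM, mostly Anpep in libraries 1 to 3 (68.96, 69.4, 76.8 and 10.2 TPM) and mostly Fabp2 in library 4 (14.4, 11.4, 9.17 and 44.2 TPM). The stem cell sum was 92.8 to 307 TPM, led by Olfm4 (165, 107, 198 and 74.1 TPM), and that of cycling cells 15.3 to 30.5 TPM. Goblet markers summed to 7812 to 17202 TPM, nearly all of it Spink4, and all 8 of them were detected. The study describes its sorted cells as nearly free of other cell types. The source of Spink4, Tff3 and Olfm4 was not tested here.

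Variation between the 4 libraries was first measured as the coefficient of variation (CV, SD over mean) of TMM-scaled CPM in the 3399 genes averaging 20 CPM or more. The median CV was 26.0% over the 4 libraries and 12.9% without library 4. Library 4 was the highest of the 4 in 36.8% of these genes and the lowest in 47.5%. Classes of short transcripts lost most of their spread when it was left out. The median CV of ribosomal protein genes went from 75.7% to 10.6%, that of nuclear OXPHOS genes from 68.6% to 16.1% and that of Defa genes from 64.1% to 18.2%. For granule proteins other than Defa it went only from 50.9% to 39.7%, and for the secretory machinery from 29.98% to 22.8%, against 26.1% and 12.7% for transcription factors. These CVs depend on the scale, which divides the CPM of library 4 by its factor of 0.503 and so raises its values. The summed levels in TPM, another measure, were 8572 ± 1057 for ribosomal protein, 1901 ± 165 for nuclear OXPHOS and 718326 ± 38343 for Defa genes over the 4 libraries.

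The 5 genes with the highest CV were Scin (144%), Fabp2 (142%), S100a6 (136%), Mptx1 (121%) and Clca1 (120%). Scin, which encodes an actin-severing protein, had 1.61, 10.98, 4.29 and 21.6 TPM. S100a6, a calcium-binding protein, had 1.75, 18.9, 15.2 and 37.1 TPM. All 5 were highest in library 4, and without it the CV of Clca1 was still 109% and that of Scin 92.5%. The 5 steadiest genes were Cul1 (0.420%), Shc1 (1.14%), Plpbp (1.63%), Ivns1abp (2.14%) and Map7 (2.17%). Cul1, a scaffold of ubiquitin ligases, had 32.4, 32.7, 32.7 and 32.5 scaled CPM. Steadiness on this scale is relative to the scaling factor, which for library 4 differs from its depth by the factor of 0.503 given above.

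Library 1 carried the second pattern, and it was opposite in Lyz1 and Ang4. It had the highest Lyz1 and the lowest Ang4, Mptx2, Mptx1, Retnlb, Clca1, Spink4 and Mmp7 of the 4 libraries, together with the highest Defa21, Defa22, Defa29, Fos and Egr1. Part of this combination recurred in the treated groups. Over all 16 libraries the 4 with the most Lyz1 were PBS+PBS 1 (118393 TPM), DEX+PBS 4 (106549 TPM), DEX+TNF 2 (95381 TPM) and DEX+TNF 1 (91916 TPM), and the next had 64992 TPM. These 4 were also the 4 with the least Ang4, at 14577, 13832, 17507 and 14936 TPM, while the other 12 ran from 29665 to 55456 TPM. They were the 4 highest in Defa29, between 12979 and 18509 TPM against at most 8424 TPM elsewhere, and the 4 lowest in Mptx1, between 7.25 and 16.5 TPM against at least 40.9 TPM. The 4 lowest levels of Spink4 and of Clca1 were in these libraries too. They fell in 3 of the 4 treatment groups. The other genes did not follow throughout. Retnlb was highest of all in DEX+PBS 4 (398 TPM), which from the top was also rank 8 of 16 for Mmp7 and rank 9 for Mptx2 and Fos. PBS+PBS 1 was rank 5 for Defa21 and Defa22, with PBS+TNF 1 above it, and PBS+TNF 2 had the highest Egr1. The libraries were chosen here for their Lyz1 level and all values are parts of a fixed sum, so this is a description without a test. What sets these libraries apart was not tested.

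**Figure D5:**
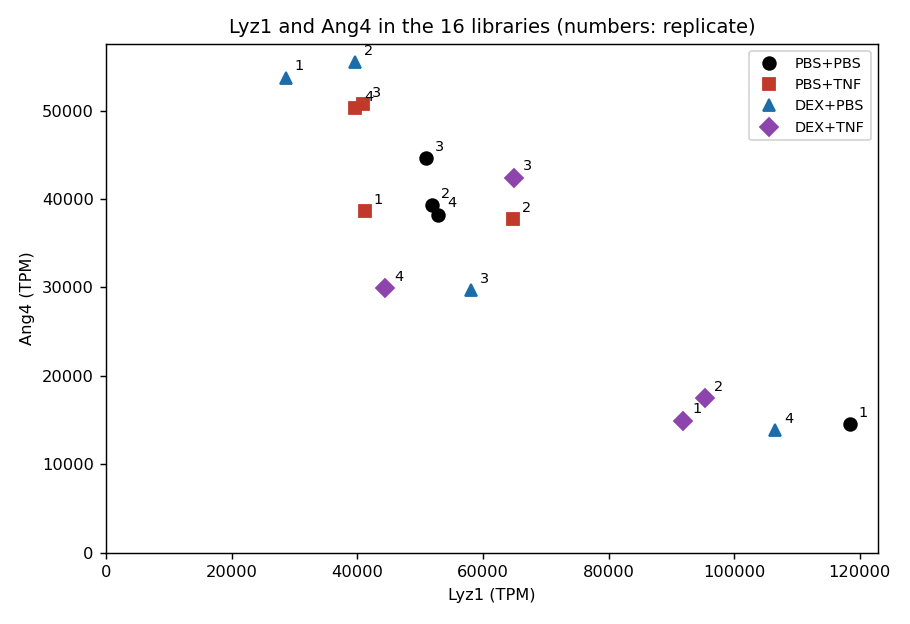
Ang4 against Lyz1 in TPM (linear axes) in the 16 libraries, with the symbol giving the group and the number the replicate. PBS+PBS 1, DEX+PBS 4 and DEX+TNF 1 and 2 lie at the lower right, with at least 91916 TPM of Lyz1 and at most 17507 TPM of Ang4, and the other 12 at the upper left.

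The composition at rest was then set against the treated libraries. The share of counts in 6 classes was compared between the 4 PBS+PBS and the 12 other libraries with a two-sided exact permutation test over libraries, whose smallest possible p is 0.000549. Alpha-defensins took 42.6% ± 7.98 (SD, n = 4) against 40.6% ± 7.92 (SD, n = 12), a difference of 2.04 percentage points (exact permutation p = 0.673). The largest difference relative to its spread was that of the other granule proteins, 26.3% against 24.1% (exact permutation p = 0.131, adjusted p = 0.788). For the remaining 4 classes p was 0.607 to 0.893, and the adjusted p was 0.788 to 0.893 for all 6 classes. No class share differed beyond the spread between libraries, and leaving out single libraries turned the sign for the Defa, ribosomal and secretory machinery classes.

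Gene by gene, PBS+PBS was the common reference of 3 comparisons fitted with edgeR over all 16 libraries and 11809 genes. They share these 4 libraries and are not independent. Against PBS+TNF, 12.5% of all tested genes were called, 7.15% higher with TNF and 5.35% lower. Against DEX+PBS 0.00847% were called, which is 1 gene and not a listed one. Against DEX+TNF 0.432% were called, 0.415% higher and 0.0169% lower. That last count depended on single libraries, with 51 genes in all, 3 without PBS+PBS 4 and 500 without DEX+TNF 3.

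The products that dominate the resting cell were not among the genes called. With TNF, edgeR called 12.5% of all 11809 tested genes. It called 0 of 20 Defa genes (0 at an unadjusted p under 0.05, 0 by DESeq2) and 0 of 20 other granule proteins (4 unadjusted, 1 by DESeq2). The list medians were 0.16 and 0.17 on the log2 scale. Likewise 0 of 81 ribosomal, 0 of 10 mitochondrially encoded and 0 of 82 OXPHOS genes were called (0 unadjusted and 0 by DESeq2 in each). At a share of 12.5%, few calls would fall on lists of 10 or 20 genes, so 0 in these short lists decides little. The log2 fold change of Defa24 was 0.21 (SE 0.70), of Lyz1 -0.45 (SE 0.66), of Ang4 0.36 (SE 0.73), of Itln1 -0.40 (SE 0.46) and of Mmp7 0.15 (SE 0.60). Errors of this size leave a 2-fold change of any of these 5 genes undecided. Without PBS+TNF 1, a library with a length gradient, the signs of Defa24, Ang4 and Mmp7 turned to -0.77, -0.32 and -0.58, again without a call. Of the secretory machinery 2 of 103 genes were called, Sel1l and Edem2 of ER-associated degradation, both lower, and Xbp1 was not called by edgeR (0.66 on the log2 scale, SE 0.26, adjusted p of edgeR 0.102) but was by DESeq2 (adjusted p = 0.0381).

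Regulators, receptors and signals are set against the background of 12.5% of all genes called and a median log2 fold change of -0.03. Of 114 tested transcription factors 36 were called, 25 higher and 11 lower with TNF, with a median log2 fold change of 0.05 over the list, and the 11 called of 18 inflammatory factors were all higher. Bhlha15, Gfi1 and Foxa2 of the secretory lineage were lower, as was Nkx2-2, the 1 called of 3 tested factors of other lineages. Of 112 receptors 36 were called, 26 higher and 10 lower (list median 0.10), among them 13 higher and 1 lower of 23 cytokine and death receptors. All 5 of the 20 Wnt and Notch receptors that were called were lower (Fzd9, Lgr4, Lgr5, Rnf43 and Ryk). Markers of stem cells moved with them, as 3 of 7 were called, all lower (Lgr5, which is on both lists, Smoc2 and Rgmb), with a list median of -1.16. Their summed level was 92.8 to 307 TPM at rest and 48.3 to 409.8 TPM in PBS+TNF, and no marker of the 7 was without a count at rest. Their part in the lower values of receptors and signals was not tested. On the log2 scale Lgr4 changed by -1.58 (SE 0.28, adjusted p of edgeR 0.00206) and Kit by -1.32 (SE 0.30, adjusted p of edgeR 0.00949). Of 13 niche signals 6 were called, with Wnt3, Wnt5a, Egf, Dll4 and Ihh lower and Bmp2 higher (list median -0.69). Wnt3 had 31.5, 35.2, 36.995 and 9.72 TPM at rest and 3.56, 20.2, 13.7 and 25.2 TPM in PBS+TNF, where PBS+TNF 1 is itself a library with a length gradient. The groups overlapped on that scale, whereas the model, with TMM scaling, gave -1.06 on the log2 scale (SE 0.21, adjusted p of edgeR 0.00465).

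Against the same 12.5% of all genes called (7.15% higher, 5.35% lower), 28 of 139 metabolic genes were called, 11 higher and 17 lower (list median log2 fold change -0.21). The 6 called of 18 genes of fatty acid oxidation and ketogenesis, among them Cpt1a, Acadm, Hadh, Acaa2 and Ehhadh, were all lower, and the 3 called of 13 in lactate and pyruvate metabolism, Pdha1, Pdk1 and Pdk2, were lower too. Of 35 other secreted proteins 8 were called, all higher, 7 of them chemokines and cytokines.

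Among the genes that rose from a resting level close to 0 were receptors of inflammatory signals and a chemokine. Osmr, a receptor of oncostatin M, had 0, 2, 3 and 1 counts at rest and 10.8, 30.2, 12.9 and 13.4 scaled CPM in PBS+TNF. Tlr2, the receptor of bacterial lipopeptides, had 0.514, 0.574, 0.907 and 0.628 scaled CPM at rest and 60.3, 61.2, 49.6 and 49.8 in PBS+TNF (a change of 6.34 on the log2 scale, SE 1.02, adjusted p of edgeR 0.00128). The chemokine Cxcl10 had 0, 0, 0 and 2 counts at rest and 32.5 to 59.0 scaled CPM with TNF. Bambi went from 112 to 290 scaled CPM at rest to 7.12 to 25.6, and Ihh from 6.16 to 13.1 to 0.542 to 1.19, without overlap. In DEX+TNF, where 0.432% of all tested genes were called, the listed genes called were Ccl20, Ccl28 and Cxcl16, Cebpd, Relb and Rel, Ifngr2, Osmr and Tlr2, and Mt1. Without PBS+PBS 4 edgeR called only 3 genes in all, 0 on the secreted, factor and receptor lists and 1 on the metabolic list. Without PBS+PBS 1, 2 or 3 the totals were 3, 6 and 9 genes. Cebpd had 1.37, 1.47, 1.39 and 1.38 scaled CPM at rest and 13.1, 20.7, 1.73 and 7.80 in DEX+TNF, where library 3 lay just above the resting range. Whether the DEX+TNF and PBS+TNF responses differ was not tested here. In DEX+PBS edgeR called 0.00847% of all 11809 tested genes and 0 genes of the 12 lists, so the 0 says little about the lists. At an unadjusted p of edgeR under 0.05 there were 224 over all genes and 0 to 10 per list, with 10 of 139 metabolic genes. DESeq2 called 6 genes in all, 1 of them metabolic.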

How the data were processed

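RNA-seq of Paneth cells sorted from the small intestine was used as 16 libraries in 4 groups of 4, with groups and replicate numbers from the sample labels. The authors deposited 1 table of raw read counts per Ensembl gene (55414 genes), and columns for all 16 libraries were used. The submitters' processing notes name FastQC 0.12, STAR 2.7.10a and DESeq2 with mm39, and the methods of the study give the GENCODE M30 annotation with updated records for the 28 Defa genes. The program that counted, the treatment of reads matching several genes and the use of strand are not given in the sources used here, so values of near-identical or overlapping genes are uncertain.

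From the deposited counts, TPM was computed with the canonical transcript length of GENCODE M39 (GRCm39), which held 54749 of the identifiers. The length model was settled after the table had been seen. Library totals were 7286307 to 15832111 counts. Intervals and floors cover counting error only, as reads carry no molecular identifiers. Groups were compared with the robust quasi-likelihood test of edgeR 4.0.16 (R 4.3.3) over all 16 libraries, on 11809 genes kept by filterByExpr, with TMM factors and Benjamini-Hochberg adjustment (threshold 0.05). Class shares were compared by exact permutation over 1820 assignments, adjusted over 6 classes. The scripts were tested on simulated data. Genes in windows were matched on 31 bases of canonical transcripts.

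The members, gene lists and tests were chosen with earlier results of these data known. Named genes were the 20 most abundant, up to 5 with the highest level in each list or subgroup, the 5 highest and 5 lowest CVs, the 5 markers, and up to 3 increases and 3 decreases per comparison among called list genes whose mean reached 5 CPM and whose groups were apart. Genes without a count, the Defa genes beyond these, the genes of the closing section, and Reg3b, Hspa5, Edem2, Foxa3, Sel1l, Sox9, Rab27a, Ehhadh, Mt1, Cpt1a, Acadm, Eno1, Lgr5, Gfi1, Egr1, Foxa2, Ifngr2, Pdk1, Nr3c1, Relb, Saa1, Tnfrsf1b, Cxcl16 and Rel were named after their values had been seen. Alternatives were RLE factors, TMM factors without Defa genes, no low-count filter, DESeq2 1.42.0, only the groups compared, the replicate number as a block, each library left out, other length models, other denominators and other filters. Not every gene that the rule names is reported.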

Additional observations from a re-analysis of the deposited data

Results flagged for a closer look

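Among 196 values with 4 PBS+PBS libraries each, 31 had 1 library far from the other 3, with a gap to its neighbour above the critical share of the range in the test of Dixon. The values tested were those given in the text, some of them named for their spread between these libraries, and they share libraries. The rate of about 1 in 20 groups of 4 flagged by chance therefore does not apply to them as a set. Library 4 was the distant one in 18 cases, library 1 in 9, library 3 in 4 and library 2 in 0.

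Library 4 stood low for 12 genes, which were not sorted by transcript length here. It had 33.6 TPM of Xbp1, 14.3 of Foxa3, 9.52 of Jund, 1.09 of Eif2ak3, 9.60 of Pycr1, 18.05 of Rab3d, 10.2 of Anpep and 6.23 of Slc30a2. For signals and receptors it had 1.02 TPM of Dll4, 5.75 of Fzd9, 1.77 of Il22ra1 and 0.638 of Adra2a. Its summed level of secretory lineage factors was 120.4 TPM and its length gradient -1.90. It stood high for Defa24 (350376 TPM), the share of counts in alpha-defensins (54.5%), Fabp2 (44.2 TPM) and Cxcl10 (0.0686 TPM, from 2 counts).

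Library 1 stood high for Lyz1 (118393 TPM), Lyz2 (27.1 TPM), Defa29 (13441 TPM), Fos (26.5 TPM), Egr1 (11.8 TPM) and the sum of bactericidal enzymes (133706 TPM), and low for Mptx2 (7631 TPM) and Mmp7 (2966 TPM). The value of Defa2 (0.320 TPM) was the only one above 0, and all its 31-base windows occur in other genes. Library 3 stood high for mt-Co1 (2267 TPM), mt-Cytb (2017 TPM), the tuft cell markers (13.9 TPM in sum) and those of red blood cells (0.147 TPM). The causes were not tested.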

How the results depend on the processing

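Shares depend on the scale. Per length with union exons, the longest and the canonical transcript, alpha-defensins took 74.6%, 72.6% and 71.8%, other granule proteins 17.6%, 17.8% and 17.7%, all listed secreted proteins 93.8%, 92.3% and 91.3%, ribosomal proteins 0.434%, 0.630% and 0.857%, mitochondrially encoded genes 0.610%, 0.576% and 0.515%, the secretory machinery 0.289%, 0.374% and 0.419%, and nuclear OXPHOS genes 0.0881%, 0.124% and 0.190%. Other secreted proteins took 1.65% with union exons, and the 10 most abundant genes of each library, not a fixed set, 86.7% with union exons and 84.6% with canonical transcripts. Of the counts outside the Defa genes, other granule proteins took 46.5%, other secreted proteins 3.79%, ribosomal proteins 2.17%, mitochondrially encoded genes 1.60%, the machinery 2.75% and OXPHOS genes 0.546%. The median CV was 40.9% on plain CPM. The canonical length model, and leaving out the 4 libraries with the strongest length gradient, were added after seeing the data. The latter changed no sign and no call of the 6 share differences. The ribosomal difference reversed to 0.0756 points outside Defa counts (adjusted p = 0.952).

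With each library left out in turn, shares ranged over 38.7% to 44.4% (alpha-defensins), 25.3% to 26.8% (other granule proteins), 1.95% to 2.29% (other secreted), 67.1% to 73.3% (all listed secreted), 1.08% to 1.29% (ribosomal), 0.801% to 0.959% (mitochondrially encoded), 1.45% to 1.80% (machinery), 0.295% to 0.321% (OXPHOS) and 60.6% to 67.1% (10 most abundant genes), and the median CV over 12.9% to 29.7%. The share differences ranged over -1.91 to 3.83, 1.24 to 2.68, -0.144 to 0.0666, -0.341 to -0.0353, -0.0832 to 0.269 and -0.0294 to -0.00104 points for alpha-defensins, other granule proteins, ribosomal, mitochondrially encoded, machinery and OXPHOS genes.

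Calls against PBS+TNF ranged over 916 (without PBS+PBS 1) to 1638, those against DEX+PBS over 0 to 1 (0 without PBS+PBS 1, 2 or 3) and those against DEX+TNF over 3 to 500, with 204 without DEX+TNF 4 and at most 9 without any other single library. DESeq2 called 1981, 6 and 293 genes. The count for DEX+TNF was 33 with no low-count filter and 0 with only those 2 groups in the fit. Correlations of same-numbered deviations from the group means ran from -0.58 to 0.48 over 7817 genes. Differently numbered libraries were not set beside them, so whether replicate numbers pair the libraries was not decided. With the replicate number as a block, 1482, 1 and 7 genes were called, and the log2 fold changes with TNF of Mmp7 and Defa24 turned to -0.041 and -0.071, without a call. Without single libraries those of Mmp7 ranged over -0.58 to 0.79 (below 0 also without PBS+PBS 1 or 3), of Defa24 over -0.77 to 0.83 and of Ang4 over -0.32 to 1.03, each lowest without PBS+TNF 1 and highest without PBS+PBS 4. Osmr, Ccl20 and Cebpd in DEX+TNF were called in 5 of 13, 5 of 14 and 6 of 14 alternatives. Depth was not the limit for abundant genes, where the spread between libraries exceeded counting error, but genes near 0 rest on a few counts.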

Other observations

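Several of the most abundant transcripts of resting PCs stood on none of the gene lists. They are given as TPM, chosen after the values had been seen, with no test. Pglyrp1, a secreted protein that binds bacterial peptidoglycan, held rank 37 of all genes with 594.5 ± 218.2 TPM (SD, n = 4) and 688.0 TPM without library 4. A pair of secreted ribonucleases stood beside it: Rnase1 at rank 45 had 490.4, 523.7, 397.1 and 138.6 TPM in libraries 1 to 4, and Rnase4 at rank 65 had 198.5, 178.3, 225.1 and 208.3 TPM. Klk1, a tissue kallikrein that cleaves proteins outside the cell, had 266.1 ± 118.1 TPM, and the membrane-anchored serine protease Tmprss2 had 169.2 ± 81.9 TPM. Spint2, an inhibitor of serine proteases of the cell surface, had 312.2 ± 106.6 TPM. Muc13, a mucin held in the cell membrane, had 271.4 ± 145.6 TPM and 341.9 TPM without library 4. Lypd8, a secreted protein that binds flagellated bacteria, had 180.0 ± 50.8 TPM.

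Cd24a, which encodes a surface protein widely used to sort PCs, had 963.6 ± 360.9 TPM. Both subunits of the iron store ferritin were among these genes, with 553.9 ± 186.8 TPM of Fth1 and 173.7 ± 58.6 TPM of Ftl1. Nupr1, a small nuclear protein known from the stress response, had 302.6, 338.2, 679.0 and 150.8 TPM, with library 3 the highest. A pair of transcribed alpha-defensin pseudogenes was also counted, at 1075 ± 461.1 TPM for Defa-ps6 and 364.9 ± 142.7 TPM for Defa-ps7, next to the far higher Defa genes. How reads shared with those genes were counted is not given, so the levels of both pseudogenes are uncertain. The ribosomal RNA copy Rn18s-rs5 held rank 19 with 5579, 1849, 2214 and 2442 TPM, highest in library 1.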
